A study of Rattus norvegicus with 30 samples.

Results

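All rats that took METH were compared with all yoked saline rats that had received the same kind of foot-shock history. The drug thus differed, while the shocks were matched by class, resistant or sensitive. The number of shocks was equal only between a yoked rat and the METH rat to which it was connected. The labels do not say which rats were connected, so that shock number was not matched rat by rat. The comparison used 23 of the 30 RNA sequencing libraries of the series, 1 per rat, and they were chosen by the group code that opens each title. The METH side held 13 libraries, 7 from shock-resistant rats (SR) and 6 from shock-sensitive rats (SS). The yoked saline side held 10 libraries, 5 from rats yoked to SR rats (YSR) and 5 from rats yoked to SS rats (YSS).

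All were adult wild type male Sprague Dawley rats. SR and SS rats self-administered METH for 21 days and then continued for 8 days in which part of the lever presses brought a foot-shock. SR rats went on pressing under punishment and SS rats pressed less. Each YSR or YSS rat received saline and was shocked whenever a METH rat to which it was connected was shocked, without having any control over the shock. The rats that took saline and were never shocked (CT, n = 7) were not part of the comparison, and their levels are given beside the named genes as a description. The yoked design limits what the contrast isolates, because METH and yoked rats differed both in the drug and in whether the shock followed their own action, and these cannot be told apart. The deposited labels give the dorsal striatum as the tissue, while their protocol text and the methods of the study describe the hippocampus. The 2 sources also disagree on when the tissue was taken relative to the last session. The labelled tissue could not be checked against marker genes, because no gene could be named.

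METH is a psychostimulant that enters monoamine nerve terminals through the transporters for dopamine, noradrenaline and serotonin and makes them release their transmitter. The hippocampus stores contextual and spatial memory, receives dopaminergic and noradrenergic input, and is sensitive to stress hormones released by events such as foot-shock. Yoked animals are used in such studies as a reference that has the punishment without the drug.

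The files identify genes by Ensembl identifier only. None of the 32552 identifiers could be paired with a gene symbol here (0 matched), so that pathways, cell type markers and named transcripts were not analysed here, and genes are described by identifier, position, length and level. The positions are those in the deposited files, which state no genome build. Total counts lay between 16202659 and 19110830 in the 13 METH libraries and between 14584340 and 19997820 in the 10 yoked libraries. At a floor of 3 counts, the shallowest library could not show a gene under 0.206 CPM (the count scaled to a common library total). No 2 libraries agreed within sampling noise. The smallest chi-square statistic per degree of freedom over 11827 well-counted genes was 5.07 among the 56 pairs of the same group. Among the 197 pairs of different groups it was 4.8. Titles also carry a code, XII or XIII, taken as the cohort. Cohort XII supplied 6 METH and 4 yoked rats, and cohort XIII supplied 7 METH and 6 yoked rats. A letter L or R follows, which no source used here explains, and it was L in 7 of the 13 METH libraries and in 3 of the 10 yoked ones. The YSR library XIII-R08 stood apart from the other 4 YSR libraries in a set of genes described below, and the main counts that rest on it are given with and without it.

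No difference between METH and yoked libraries in 7 library-wide measures was larger than the spread between rats. The share of counts on mitochondrial genes was 7.84 ± 0.871% (SD, n = 13) in METH and 7.97 ± 0.498% (SD, n = 10) in yoked rats. An exact permutation test (two-sided) that exchanged libraries within cohort and shock class gave p = 0.551 (n = 13 and 10; adjusted over the 7 measures, 0.769). The total count, the share of counts on chromosome X, the share taken by the 10 most counted genes and the number of genes with at least 10 counts gave exact permutation p-values between 0.503 and 0.693. The first principal component of log2 CPM, which held 16.4% of the variance, gave p = 0.107 (adjusted p = 0.746), and the second, with 8.48%, gave p = 0.769 in the same exact permutation test.

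After edgeR's filter on low counts, 15643 genes were tested with cohort and shock class as covariates. No gene passed a Benjamini-Hochberg adjusted p-value of 0.05 in edgeR's quasi-likelihood test (0 genes, 0%), and the smallest adjusted p was 0.114, shared by 2 genes. At an unadjusted p-value under 0.05, 1222 genes passed, which is 7.81% of those tested, where the threshold alone would pass 5% on average. Genes are not independent of each other, so that the share can lie off 5% without a METH difference. It was 4.94% for SS vs. YSS alone and 9.35% for the interaction of METH with cohort, both described below. Of the 1222 genes, 667 (4.26% of those tested) were higher and 555 (3.55%) lower in METH rats. DESeq2 gave 1232 genes at the unadjusted threshold, 1169 of them shared with edgeR in the same direction, but also 29 genes after adjustment (17 higher and 12 lower), so that the count after adjustment depended on the tool. Limma gave 1203 and 0 genes on the same 2 criteria, and an ordinary linear model gave 1152 and 0. Without the YSR library XIII-R08, edgeR gave 1305 genes at the unadjusted threshold and 0 after adjustment. The range with each of the 23 libraries left out is given below.

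Most differences were small. The genes past the unadjusted threshold differed by a median of 1.12-fold in either direction. Of the 1222, 834 differed by under 1.2-fold, 278 by 1.2- to 1.5-fold and 110 by 1.5-fold or more. The median standard error of the log2 fold change was 0.06, with 5% of genes under 0.03 and 5% over 0.26. The data therefore bounded the difference for most genes. The 95% interval of the fold change lay within 1.2-fold in both directions for 10441 genes (66.7%), within 1.5-fold for 14027 (89.7%) and within 2-fold for 15283 (97.7%). It reached 2-fold for 360 genes. The median log2 fold change over all genes was 0.00, and 90% of genes lay between -0.18 and 0.22. In no gene were all 13 METH rats above all 10 yoked rats, and in no gene were all 13 below.

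**Figure D1:**
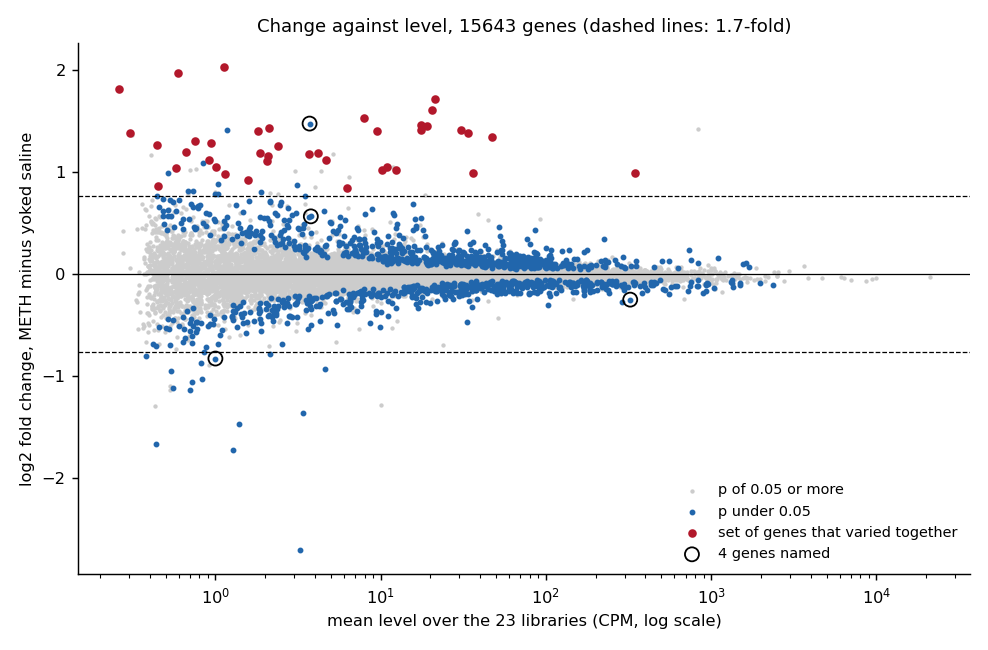
Change in METH against yoked saline rats for the 15643 genes tested. The x axis gives the mean level over the 23 libraries in CPM on a log scale and the y axis the log2 fold change, with 1 point per gene. Blue points had an unadjusted p-value under 0.05, red points are the 39 genes that varied together from library to library, open circles mark the 4 genes named in the text, and dashed lines mark 1.7-fold. Few genes lie outside the dashed lines, and the red points make up most of those above the upper line.

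The METH and yoked groups overlapped even for the genes with the smallest p-values, 2 in each direction. Levels of these genes are given as CPM after TMM normalization over all 30 libraries. None of them overlaps another gene of the deposited tables, and none passed after adjustment in edgeR. They were picked by p-value from all genes tested, on the same METH and yoked libraries. The exact permutation p-values given for them below are not corrected for that choice. Those p-values are therefore no second line of support beside the adjusted ones.

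ENSRNOG00000060635, on chromosome 3 from 83052724 to 83134363 (minus strand, 839 exonic bases), was the gene with the smallest p-value. It had 3.36, 4.92 and 6.0 CPM as the lowest, median and highest level in SR rats and 3.10, 3.88 and 4.71 CPM in SS rats. The YSR rats had 2.72, 2.75, 2.85, 3.35 and 4.32 CPM, and the YSS rats had 2.38, 2.39, 2.59, 2.78 and 3.37 CPM. All 13 METH rats were above the median of the yoked rats, and 7 of the 13 were above the highest yoked rat, which was a YSR rat. The level was 1.48-fold higher in METH rats (95% interval 1.28 to 1.71), a log2 fold change of 0.57 with a standard error of 0.10 (adjusted p = 0.114 from edgeR). Exact permutation within cohort and shock class gave a two-sided p = 9.5e-05 (n = 13 and 10). The 7 CT rats had between 2.65 and 3.68 CPM, a range that held 4 of the 13 METH and 6 of the 10 yoked rats.

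ENSRNOG00000031662, on chromosome 1 from 105284753 to 105336363 (plus strand, 7216 exonic bases), differed by more but was far more variable among METH rats. The lowest, median and highest levels were 1.63, 4.29 and 8.25 CPM in SR rats and 1.84, 6.15 and 9.37 CPM in SS rats. In YSR rats the levels were 1.02, 1.7, 1.72, 1.94 and 2.02 CPM, and in YSS rats they were 1.36, 1.39, 1.88, 2.15 and 3.35 CPM. All yoked rats were thus at the low end, whereas METH rats were spread over the whole range, with 9 of the 13 above the highest yoked rat and 4 within the yoked range. The fitted change was 2.79-fold (95% interval 1.88 to 4.13), or 1.48 on the log2 scale with a standard error of 0.28 (adjusted p = 0.114 from edgeR). Exact permutation gave a two-sided p = 0.000952 on log2 CPM and 0.00135 on CPM (n = 13 and 10). The levels in the 7 CT rats ran from 2.02 to 7.98 CPM with a median of 5.30, so that the unshocked saline rats covered much of the range of the METH rats. CT was not tested against either side here.

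ENSRNOG00000049949, on chromosome 16 from 21081377 to 21089508 (minus strand, 3687 exonic bases), had the smallest p-value among the genes that were lower in METH rats, and it is well counted, with 3882 counts or more in every library. Its lowest, median and highest levels were 228, 306 and 349 CPM in SR rats and 250, 309 and 352 CPM in SS rats. The YSR levels were 304, 323, 344, 395 and 411 CPM, and the YSS levels were 323, 330, 347, 372 and 382 CPM. The ranges overlapped, with 11 of 13 METH rats below the median of the yoked rats and 5 below the lowest of them. The change was a log2 fold change of -0.25 with a standard error of 0.05 (adjusted p = 0.144 from edgeR), and permutation over all arrangements gave an exact two-sided p = 0.000122 (n = 13 and 10). The 7 CT rats had between 252 and 350 CPM, within the range of the METH rats.

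ENSRNOG00000014603, on chromosome 15 from 41549331 to 41595345 (minus strand, 1568 exonic bases), separated the groups best in terms of rats, but at a low level of 4 to 33 counts per library. SR rats had 0.588, 0.813 and 1.18 CPM as the lowest, median and highest level, and SS rats had 0.233, 0.671 and 0.998 CPM. The YSR rats had 1.07, 1.19, 1.29, 1.49 and 1.54 CPM, and the YSS rats had 1.08, 1.15, 1.22, 1.25 and 1.88 CPM. Of the 13 METH rats, 11 were below the lowest yoked rat, and the other 2 were SR rats at 1.14 and 1.18 CPM. The log2 fold change was -0.83 with a standard error of 0.18 (adjusted p = 0.206 from edgeR). Exact permutation gave a two-sided p = 1.36e-05, which is the smallest that the 73500 arrangements within cohort and shock class can give (n = 13 and 10). Like those of the other named genes, this p-value takes no account of the gene having been picked on the same rats. The highest yoked rat, YSS XIII-L04, was far from the other 4 YSS rats, and without it the log2 fold change was -0.74 (adjusted p = 0.280 from edgeR). CT rats had between 0.609 and 1.49 CPM, with levels in the range of both sides.

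**Figure D2:**
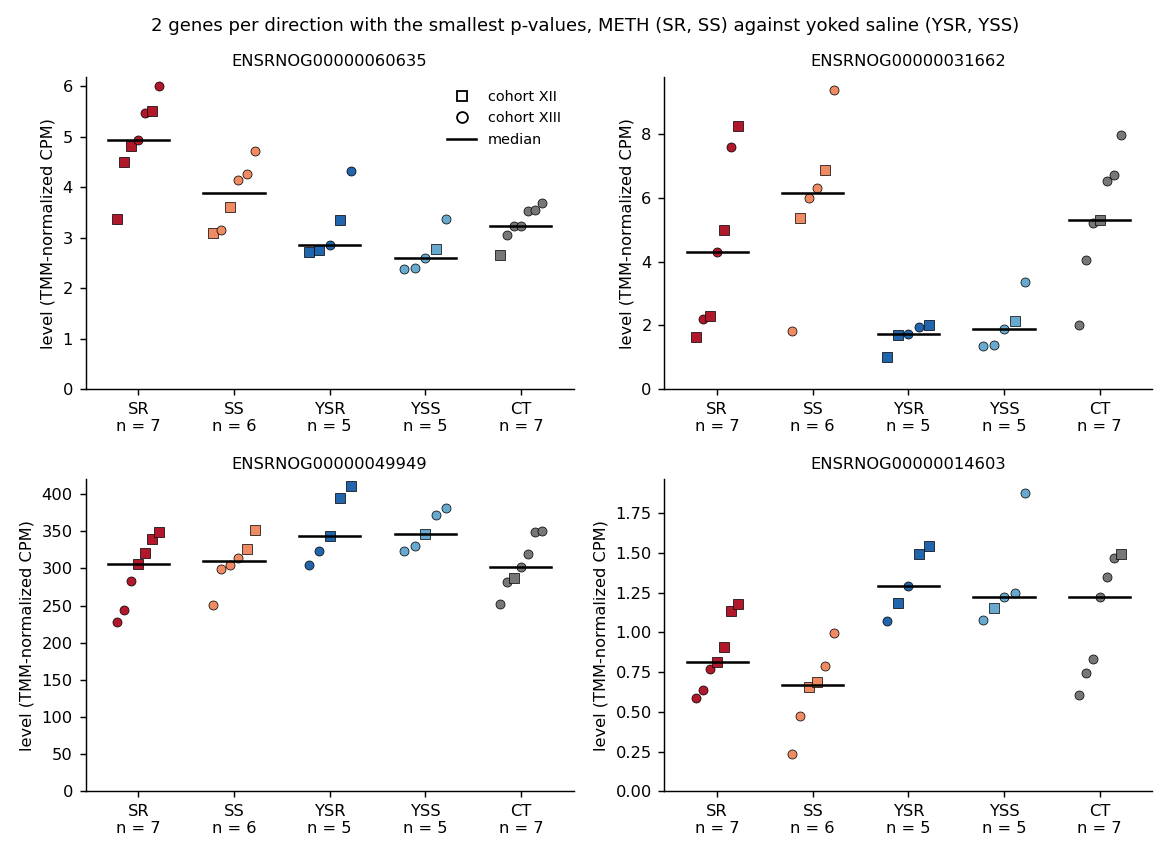
Level of the 4 named genes in each of the 30 libraries, as TMM-normalized CPM on linear axes that start at 0. Each point is 1 rat, squares are cohort XII, circles are cohort XIII, and black lines are group medians. In the upper panels at least 12 of the 13 METH rats (SR and SS) lie above the median of the yoked rats (YSR and YSS), in the lower panels at least 11 lie below it, and in every panel at least 2 of the 13 METH rats lie within the yoked range.

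The direction of these 4 genes was the same in both cohorts and both shock classes, each with an unadjusted p-value under 0.05. For ENSRNOG00000060635 the log2 fold change was 0.53 in cohort XII and 0.60 in cohort XIII, and 0.61 in SR vs. YSR and 0.53 in SS vs. YSS. For ENSRNOG00000031662 these values were 1.47, 1.48, 1.4 and 1.55 in the same order. For ENSRNOG00000049949 they were -0.17, -0.28, -0.27 and -0.23. For ENSRNOG00000014603 they were -0.55, -1.0, -0.62 and -1.07. The difference between cohorts or between classes was not past the unadjusted threshold for any of the 4 (p between 0.209 and 0.984, edgeR interaction terms, the smallest being for ENSRNOG00000014603). The 4 genes were picked on all 23 rats, so that these parts are no independent evidence of their direction.

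At a change of at least 1.7-fold and an unadjusted p-value under 0.05, the criterion the study used for its own pairs of groups, 52 genes (0.332%) were higher and 15 (0.0959%) lower in METH rats. The excess of higher genes came from genes that rose and fell together across rats. Of the 52, 39 formed a single set at an average correlation of 0.6 across the 23 libraries. The set was found after the values were seen and is described without a test. Its genes lie on 17 chromosomes, with mean levels from 0.261 to 346 CPM, and their log2 fold changes ran from 0.85 to 2.04 with a median of 1.26, beside a median of 0.00 over all genes. The smallest unadjusted p-value among them was 0.00424 (adjusted p = 0.407 from edgeR), so that none had strong support on its own.

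The level of the set differed widely between rats of the same group. As the mean log2 CPM of the 39 genes, SR rats had -0.36, 2.56 and 3.44 as lowest, median and highest level, and SS rats had -0.41, 2.13 and 3.24. The YSR rats had -0.55, -0.49, -0.07, 0.35 and 2.91, and the YSS rats had -0.51, 0.82, 1.35, 1.47 and 1.89. A single YSR rat, XIII-R08, therefore lay among the high METH rats, while 3 SR rats and 2 SS rats were below 0.8. The CT rats, which had neither drug nor shock, ran from -0.06 to 2.89 with a median of 1.33 and fell into 3 low and 4 higher rats. In cohort XII (6 METH and 4 yoked rats) the median log2 fold change of the 39 genes was 1.91 and in cohort XIII (7 and 6 rats) it was 0.91. Of the 39 genes, 34 passed the unadjusted edgeR threshold in cohort XII and 1 in cohort XIII. By shock class, 9 passed in SR vs. YSR and 2 in SS vs. YSS. With the first principal component as a further term, an alternative added after the data were examined, their median log2 fold change was 0.03, 0 of the 39 genes passed the unadjusted threshold, and the 1.7-fold lists held 10 higher and 24 lower genes. Because the set itself contributes to that component, this fit does not separate the set from METH. In bulk tissue, fewer cells of a type and less RNA per cell cannot be told apart, and whether the set marks a cell type, a piece of neighbouring tissue or a state of the cells was not tested, since no gene could be named.

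**Figure D3:**
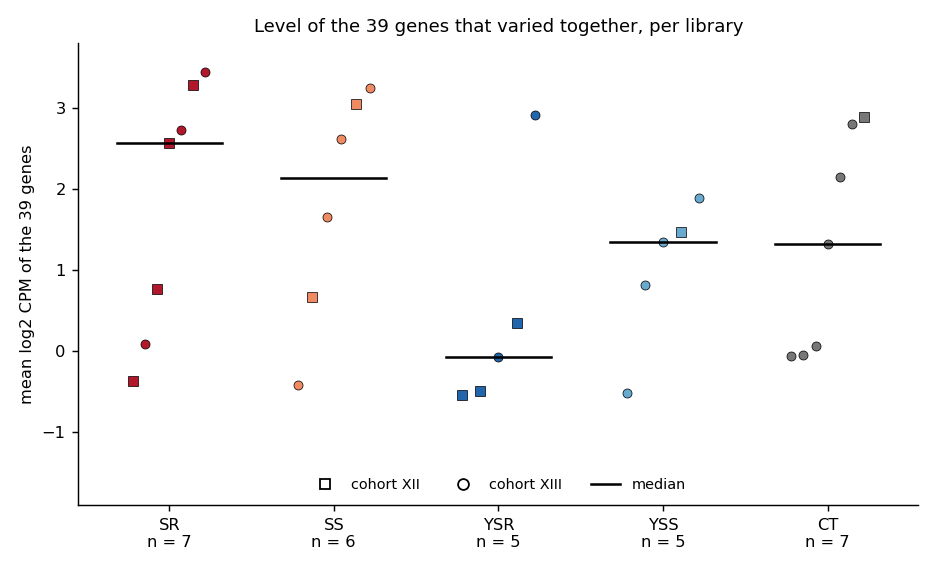
Mean log2 CPM of the 39 genes that varied together, for each of the 30 libraries by group. Each point is 1 rat, squares are cohort XII, circles are cohort XIII, and black lines are medians. Rats of the same group differ widely, the highest YSS rat lies at 1.89 while 7 of the 13 METH rats lie above 2.5, and 4 of the 5 YSR rats lie under 0.4, below 10 of the 13 METH rats.

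The length of the higher list rested on single rats in a way the lower list did not. It held 24 genes without the SS rat XII-R03, 26 without the SR rat XIII-R07, 28 without the SS rat XIII-L03 and 32 without the SR rat XII-L05, which are the 4 METH rats with the highest level of the set. It held between 30 and 33 genes without any one of YSR XII-R02, XII-R06, XII-R10 or XIII-R10 or YSS XIII-R04, which are the 5 yoked rats with the lowest level of the set. It held 78 without YSR XIII-R08. The lower list held between 12 and 22 genes when each of the 23 rats was left out in turn. Of the 39 genes of the set, 12 kept an unadjusted p-value under 0.05 in all 23 of these fits, compared with 8 of the other 13 higher genes and 10 of the 15 lower genes.

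The 13 higher genes outside the set differed by 1.7- to 2.79-fold at mean levels of 0.442 to 3.72 CPM. A group of 3 of them was high in the SR rats XIII-L09, XII-L05 and XII-L07, with a mean log2 CPM of 2.23, 1.65 and 1.89, and between -1.05 and 0.04 in the other 20 METH and yoked rats. All 7 CT rats had between 1.45 and 2.40. Without those 3 SR rats, 0 of the 3 genes passed the unadjusted threshold and the higher list as a whole held 29 genes. Those 3 are all the SR rats with the letter L in their title, and no YSR rat has that letter. Within SR vs. YSR the level of the 3 genes and the letter therefore cannot be told apart. The 4 SS and 3 YSS rats with the letter L had between -0.997 and -0.141. The 5 CT rats with the letter R had between 1.57 and 2.40. The cause of the difference in these 3 genes was not tested. The 15 lower genes had mean levels of 0.379 to 4.62 CPM. The gene with the largest fitted fall, ENSRNOG00000049829 (6.51-fold), was chosen for mention after its values were seen, because the fall rested on 1 yoked rat. It had 1204 counts in YSS XIII-L06 and between 0 and 55 in the other 29 libraries, and without that rat its log2 fold change was 0.57 (adjusted p = 0.904 from edgeR). The other 14 lower genes differed by 1.72- to 3.29-fold. In the 2 cohorts taken singly, 1 of the 13 higher and 3 of the 15 lower genes passed the unadjusted threshold in both with the same direction, and in both shock classes 3 and 2 did. All of these genes are lowly expressed, so that the 1.7-fold list outside the set holds no gene above 5 CPM.

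The 2 cohorts share no library and were fitted separately, with shock class as a term. They differ in the groups they hold. Cohort XII had 4 SR, 2 SS, 3 YSR and 1 YSS rat, and cohort XIII had 3 SR, 4 SS, 2 YSR and 4 YSS rats. How far the METH difference repeats between them cannot be told apart from this difference in make-up. In cohort XII (6 METH and 4 yoked rats), 1449 genes (9.26%) passed at an unadjusted p of 0.05, and in cohort XIII (7 and 6 rats) 1287 genes (8.23%) did. After adjustment edgeR gave 0 genes in each, while DESeq2 gave 38 and 10. Of the genes past the unadjusted threshold, 142 passed in both cohorts, which is 9.80% of the first list and 11% of the second. These shares were near those of all genes called in the other cohort, 8.23% and 9.26%. The shared genes split into 77 with the same direction and 65 with opposite directions. Over all 15643 genes, 7238 (46.3%) had the same direction in both cohorts, and the log2 fold changes correlated across genes with r = 0.11 and rho = -0.05. Genes are not independent of each other, so that no p-value is given. Without the 39 genes of the set, r was 0.01. The interaction of METH with cohort had an unadjusted p-value under 0.05 for 1463 genes (9.35%), and none passed after adjustment in edgeR.

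The 2 shock classes also share no library, although their fit shares the cohort term. In SR vs. YSR, 1301 genes (8.32%) passed the unadjusted threshold, with 567 up and 734 down in the METH rats. SS vs. YSS gave 772 (4.94%), with 413 up and 359 down. EdgeR gave 3 genes after adjustment in the former, 1 higher and 2 lower, and 0 in the latter, where DESeq2 gave 35 and 0. The lists shared 85 genes, 6.53% of the first and 11% of the second. In this case more agreed in direction than not, with 60 of the 85 in the same direction (43 higher and 17 lower) and 25 opposite. Over all genes 50.9% had the same direction, with r = 0.18 and rho = 0.06 across genes, and r was 0.09 without the 39 genes of the set. The difference between the 2 classes, tested as an interaction, had an unadjusted p-value under 0.05 for 901 genes (5.76%). After adjustment edgeR gave 0 and DESeq2 gave 3 genes. Both counts that involve YSR rats moved with YSR XIII-R08. Without it, SR vs. YSR gave 1747 genes (11.2%), of which 14 passed after adjustment in edgeR. The interaction without it gave 1248 genes (7.98%), of which 0 did, while SS vs. YSS gave 794 (5.08%). That rat was singled out by its high level in a set picked as higher in METH rats, so these rises are no independent evidence. Leaving out YSR XII-R06 instead lowered SR vs. YSR to 994 genes, and leaving out YSS XIII-L04 lowered the interaction to 657.

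**Figure D4:**
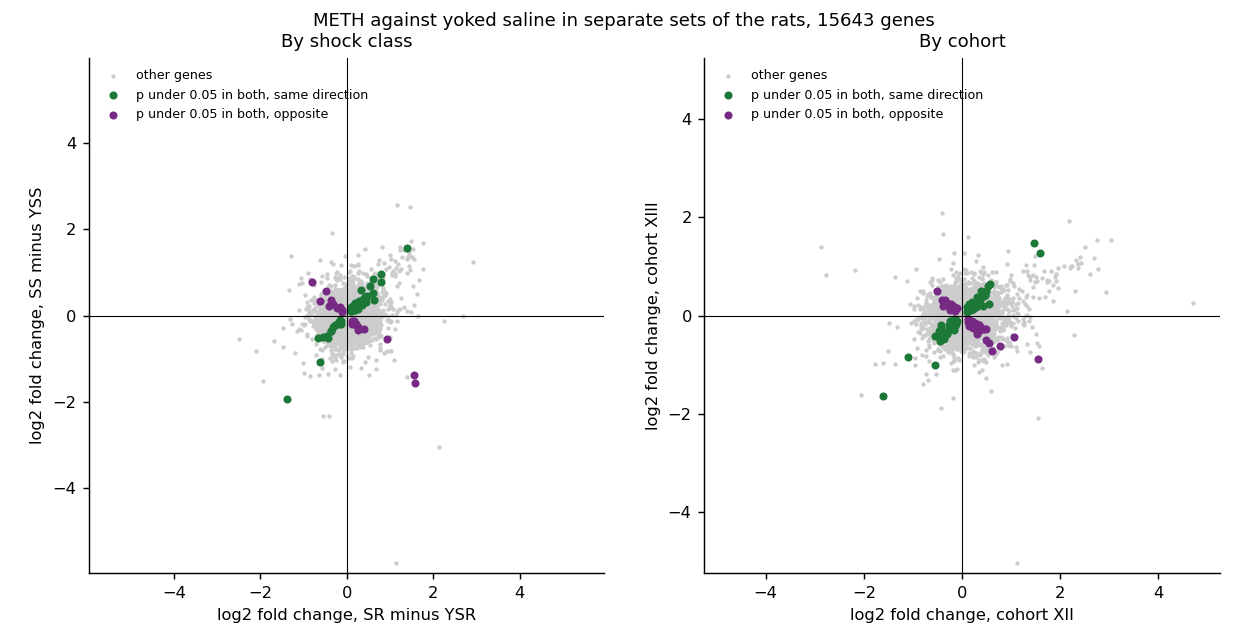
Log2 fold change of METH against yoked saline in separate sets of the rats, 1 point per gene, with SR vs. YSR against SS vs. YSS on the left and cohort XII against cohort XIII on the right. Green points passed an unadjusted p-value of 0.05 in both sets with the same direction and purple points in both with opposite directions. On the left 60 genes are green and 25 purple, on the right 77 are green and 65 purple, and the grey cloud of other genes shows little slope.

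How many of the 1222 calls held when any 1 rat was removed was counted by leaving out each of the 23 rats in turn. A call lost in several of these fits lies near the threshold and need not rest on any single rat. An unadjusted p-value under 0.05 was kept in all 23 fits by 569 genes (46.6%), lost in 1 to 3 fits by 183 and lost in more by 470. The share kept was 46.5% of the higher and 46.7% of the lower genes, and 1 gene changed direction in any fit. The total ran from 985 genes without YSR XII-R06 to 1562 without SS XIII-L05. Leaving out SS XIII-L05 also gave 9 genes past the adjusted threshold in edgeR, and leaving out SR XII-R05, YSR XIII-R10, YSS XII-R04 or SS XIII-R03 gave 3, 2, 2 and 1. These 5 rats are not of 1 group or cohort, and none of the other 18 gave any.

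The share of genes past the unadjusted threshold depended on how long and how strongly expressed the genes were. Genes that span under 3 kb from start to end passed in 5.08% of 1988 cases, those of 10 to 30 kb in 7.45% of 4561, those of 100 to 300 kb in 10.9% of 1626 and those over 300 kb in 11% of 356. In the shortest class more genes were lower (61) than higher (40), and in every longer class more were higher. Long genes are also more strongly expressed here, with a median of 31.5 CPM at 100 to 300 kb against 4.0 CPM under 3 kb. Among genes of 10 to 100 CPM alone, the share was 6.6% under 3 kb and 11.4% at 100 to 300 kb, so that the rise with length remained at a similar level. The median log2 fold change was within 0.01 of 0 in every class, which means that long genes did not move one way as a group.

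By level, the higher and lower calls parted among the most abundant transcripts. Genes with a mean over 100 CPM had 69 higher and 133 lower calls among 2230 tested (3.09% and 5.96%), while genes of 10 to 100 CPM had 375 higher and 234 lower calls among 7869 (4.77% and 2.97%). Of the abundant genes, 1352 of 2230 had a log2 fold change below 0, with a median of -0.01. These are relative values, since CPM values share 1 total per library, so that a small fall of abundant transcripts and a small rise of the others cannot be told apart.

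**Figure D5:**
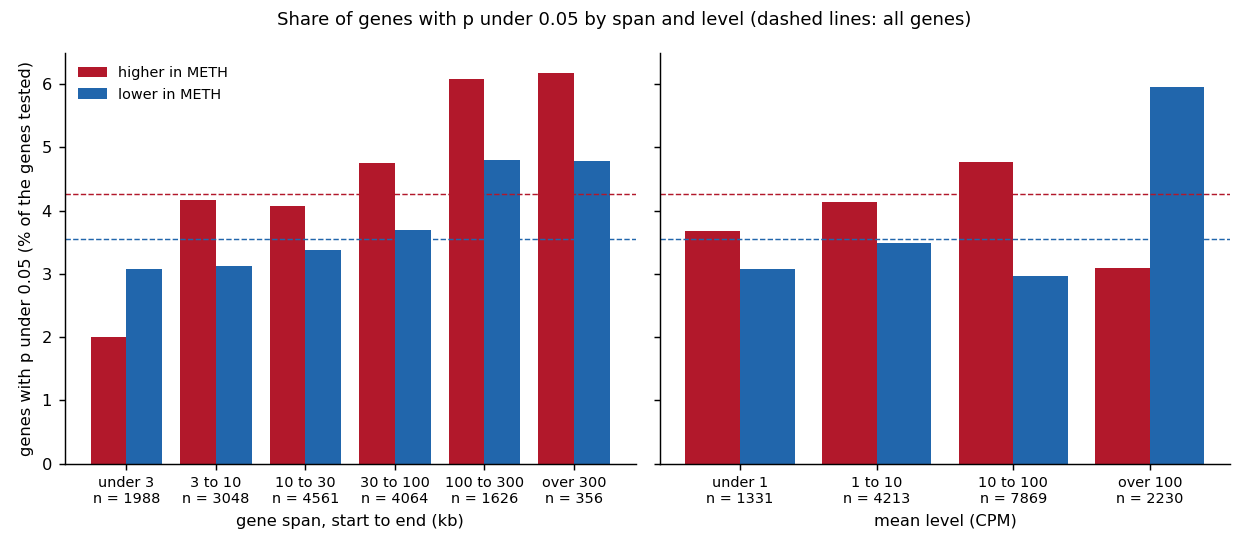
Percentage of the genes tested with an unadjusted p-value under 0.05, higher (red) or lower (blue) in METH rats, by gene span in kb on the left and by mean level in CPM on the right, with the number of genes under each pair of bars and the axis starting at 0. Dashed lines are the shares over all genes, 4.26% higher and 3.55% lower. In the left panel both shares are largest above 100 kb. Over both panels, lower genes outnumber higher ones only in the shortest and in the most abundant class.

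Transcripts of the mitochondrial genome, which encodes subunits of the respiratory chain together with the ribosomal and transfer RNAs of the organelle, showed no difference at the unadjusted threshold for the longer genes. Of the 35 mitochondrial genes in the files, 29 were tested. The 13 with at least 200 exonic bases all had a log2 fold change below 0, between -0.10 and -0.02 with a median of -0.04, and 0 of 13 had an unadjusted p-value under 0.05. These 13 share one genome and one set of libraries and are not independent, and the share of mitochondrial counts did not differ between the groups, as given above. Of the 16 shorter genes tested, 3 (18.8%) were lower at the unadjusted threshold and 0 higher. These 16 genes have 64 to 75 exonic bases and a median level of 9.45 CPM. They are shorter than the sequencing reads of the study, so that their counts may include neighbouring transcripts, which was not tested. Over all genes the shares were 3.55% lower and 4.26% higher. None of the 16 passed after adjustment in edgeR, and they share the same genome and libraries.

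No autosome, nor chromosome X, moved as a whole. Across the 20 autosomes and chromosome X, the median log2 fold change lay within 0.01 of 0. The share of genes past the unadjusted threshold ran from 5.21% of 461 genes on chromosome 20 to 11.5% of 485 genes on chromosome 13, where 35 were higher and 21 lower. On chromosome X it was 5.39% of 538 genes. Chromosome Y held 7 tested genes, of which 2 (28.6%) were lower and 0 higher, with a median log2 fold change of -0.03. Over all genes 3.55% were lower and 4.26% higher, and 7 genes are too few to read this share.

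METH rats also varied more among themselves than yoked rats did. Within cohort and shock class, the median standard deviation of log2 CPM over genes was 0.148 among METH rats (9 degrees of freedom) and 0.131 among yoked rats (6 degrees of freedom), and it was larger among METH rats for 9659 genes (61.7%). The ratio of the 2 was 1.88 for ENSRNOG00000031662, 1.41 as the median of the 39 genes that varied together and 1.13 as the median over all genes. This difference in spread is given as a description and was not tested.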

How the data were processed

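RNA was enriched with oligo(dT) beads and sequenced as paired reads. The authors deposited raw read counts per Ensembl gene, 1 table per rat, without normalization. The processing notes of the submitters name bcl2fastq 2.17, Trimmomatic 0.36, STAR 2.5.2b and featureCounts of Subread 1.5.2. The genome build and the use of strand are not given in the sources used here, so that reads of overlapping or near-identical genes may be shared.

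Libraries were grouped by title. Counts of the 23 SR, SS, YSR and YSS libraries were fitted with edgeR 4.0.16 in R 4.3.3 (quasi-likelihood test, TMM, default filter; terms cohort, shock class and METH). Benjamini-Hochberg adjustment covered all 15643 genes. SR vs. YSR, SS vs. YSS and their interaction came from a 4-group fit with cohort, and each cohort was fitted separately. Log2 CPM used a prior count of 2. Single values were tested by exact two-sided permutation within cohort and shock class. DESeq2 1.42.0, limma 3.58.1 and other settings were alternatives. The comparison, the gene lists and the rules were chosen with earlier results of these data known. Genes were to be named by symbol and list; as 0 of 32552 identifiers matched a symbol, the rule left the 2 smallest p-values per direction, and 33 gene and marker lists were not analysed here. The code was tested on simulated counts. P-values measure the spread between rats, and intervals and floors cover counting error or that spread only.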

Additional observations from a re-analysis of the deposited data

Results flagged for a closer look

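For ENSRNOG00000014603, the YSS rat XIII-L04 had 1.88 CPM, far above the other 4 YSS rats, which had between 1.08 and 1.25 CPM. The gap to the nearest rat was a share of 0.789 of the range of the group.

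For ENSRNOG00000049829, 1 rat stood far above the rest of its group in all 4 groups. YSS XIII-L06 had 65.0 CPM (1204 counts) against at most 0.454 in the other YSS rats, and SR XII-L05 had 3.44 CPM (55 counts) against at most 0.885. SS XII-L03 had 0.687 CPM (12 counts) against at most 0.238, and YSR XII-R10 had 1.05 CPM (15 counts) against at most 0.319. The SS and YSR rats thus stood out on few counts. This gene was added to the search after its values were seen.

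For the mean log2 CPM of the 39 genes that varied together, the YSR rat XIII-R08 had 2.91, while the other 4 YSR rats lay between -0.55 and 0.35, and the gap was a share of 0.742 of the range. Of 44 groups of values examined for such rats, 6 held one, where chance gives about 2.2 if no group is picked on its values. The 6 include the 4 groups of ENSRNOG00000049829, which was added after its values were seen. They also include 1 group of the set, which was found in the same way. The count of 6 therefore cannot be compared with the number given by chance.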

How the results depend on the processing

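No replicate numbers are shared between groups, and the labels do not say which rats were connected. The titles number all 13 METH rats odd and all 10 yoked rats even, and 7 METH rats have a yoked rat of the same cohort, letter and shock class at the next number, so these 7 couples were tried as a replicate block after seeing the data. The paired fit of these 14 libraries gave 720 genes at the unadjusted threshold (413 higher, 307 lower; 22 and 23 at 1.7-fold), and the same libraries without the block gave 651 (370 and 281; 18 and 24), with 0 after adjustment in either. All 4 named genes differed in 1 direction in 7 of 7 couples. They were picked on rats that include these 14, so that this is no independent evidence of their direction. Residuals of the couples correlated between -0.255 and 0.144, over 0.1 in 1 of 7, and no METH rat correlated best with its own couple, so the data do not show that these numbers pair the rats. The counts of genes at the unadjusted threshold stayed within 1.5 times of their values under the other 17 alternatives (947 to 1786 genes in all), and between 985 and 1562 with each rat left out (511 to 792 higher, 461 to 770 lower). They were 994 to 1747 for SR vs. YSR, 545 to 1015 for SS vs. YSS and 657 to 1248 for the interaction. The adjusted count of 0 became 29 with DESeq2, 1 with all genes that had a count, 1 with all 30 libraries, and 0 to 9 with each rat left out. The 1.7-fold lists (52 higher, 15 lower) depended most on the filter, with 322 higher and 278 lower for all genes with a count and 14 and 2 for genes with at least 10 counts in each library. They were 34 and 25 with the letter L or R as a term, 117 and 26 in cohort XII alone, 28 and 34 in cohort XIII alone, 83 and 27 at 1.5-fold, and 10 and 24 with the first principal component as a term. The higher list was 21 with limma, 10 with the ordinary linear model and 29 without the 3 SR rats named above. The lower list was 9 at 2-fold. With each rat left out, they ran from 24 to 78 and from 12 to 22. The cause of these shifts was not tested, apart from the number of genes tested and the criterion itself. The 4 named genes kept their direction and an unadjusted p-value under 0.05 under every alternative that gave a value and with each rat left out. These fits use the rats on which the genes were picked and are no independent evidence either. The adjusted p-values of the 4 genes ran from 0.00305 to 0.999, with DESeq2 giving the smallest. ENSRNOG00000014603 had too few counts for the stricter filter. The alternatives planned for gene lists were not run, because no identifier matched a symbol. The first principal component, the 3 SR rats, the couples and DESeq2 within cohorts were chosen after seeing the data.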
